A study of Mus musculus with 12 samples.

Results

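The V1 sector is the cytosolic, ATP-hydrolysing part of the vacuolar H+-ATPase (V-ATPase), the pump that acidifies lysosomes, endosomes and synaptic vesicles. The genes described here were chosen by symbol: Atp6v1a, Atp6v1b1, Atp6v1b2, Atp6v1c1, Atp6v1d, Atp6v1e1, Atp6v1f, Atp6v1g1, Atp6v1g2 and Atp6v1h. All 10 were among the 25239 genes of the expression table, and 1 of the 2643 m6A peaks in the deposited peak table lay on one of them, Atp6v1e1. That table is shorter than the list of peaks the study describes, and peaks outside it are not analysed here. The cells were HT22, an immortalised mouse hippocampal line labelled as wild type. They were exposed for 72 h to 800 μM mesaconitine (MA), a diester-diterpenoid alkaloid of Aconitum plants, or left at 0 μM as the control. From each condition 3 input libraries and 3 libraries of RNA fragments pulled down with an anti-m6A antibody (IP) were made, 12 libraries in all. Whether the 3 libraries of a group came from separate cultures is not given in the sources used here.

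In the V1 sector, A and B subunits alternate in a ring that holds the catalytic sites, D and F form the central rotor, and pairs of E and G subunits make the outer stalks that, with C and H, tie the ring to the membrane sector V0. Release of V1 from V0 stops the pump, and reassembly in response to nutrients is a known way by which cells set lysosomal acidity. Several subunits have a second gene with a narrow tissue pattern, such as B1 in acid-secreting epithelia and G2 in neurons. N6-methyladenosine (m6A) is a mark laid on mRNA mostly within the 5-letter consensus DRACH (D is A, G or T; R is A or G; H is A, C or T; the middle A carries the mark), often near stop codons.

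Atp6v1e1, which encodes a stalk subunit, was the only member with a peak in the deposited table. The gene lies on the minus strand at chr6:120794305-120822793 (GRCm38, the assembly behind mm10), and the peak at chr6:120795669-120795718 fell in exon 9 of 9 of its longest coding transcript. Of its 50 bases, 14 were coding, 3 were the stop codon and 33 lay in the 3′UTR. The first 44 of them, chr6:120795675-120795718 read on the minus strand, are printed because they hold the only DRACH match of the peak, in capitals.
Atp6v1e1 peak, 5′ part: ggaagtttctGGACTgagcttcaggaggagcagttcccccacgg
The match ran over the last coding bases and ended with the first base of the stop codon, so that its A stood 2 bases before that codon. The remaining 6 bases are not shown.

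The same 5 letters occurred 3 times in the 1312 bases of this transcript, and DRACH 18 times, but the deposited peak covered 1 match of each. Over the whole table, 29.6% of the 2642 peaks with a sequence held GGACT and 80.5% held DRACH on the transcribed strand. Among the 908 peaks that were also 50 bases long, the shares were 5.07% and 59.8%. An annotated stop codon lay under 113 of the 2642 peaks (4.28%) and under 27 of the 908 short ones (2.97%). A stop codon together with GGACT was found in 5 of those 908, the Atp6v1e1 peak included. These matches are descriptions of the letters and do not show which base was methylated.

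**Figure D1:**
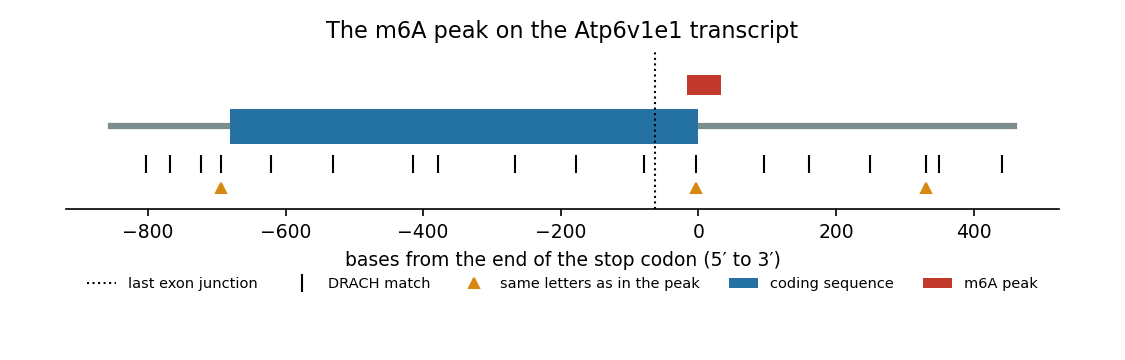
Position of the m6A peak (red) on the longest coding transcript of Atp6v1e1, in bases from the end of the stop codon, with the coding sequence in blue and the untranslated parts in grey. Ticks mark the 18 DRACH matches and triangles the 3 matches with the same 5 letters as in the peak, of which 1 lies under the peak, just past the last exon junction.

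The members' mRNA levels fell into a group of 8 abundant genes and a pair near 0. The measure was the authors' base mean, 1 value a gene that averages counts over libraries after scaling each by its size factor. Both conditions are merged in it, so it gives levels in HT22 cells and no effect of MA. For the abundant members the spread between libraries cannot be read from it. For the pair near 0, counts in single libraries could be worked out and are given below. It was divided by the length of the longest coding transcript to set genes side by side. Its 6 lowest values above 0, from 0.15 to 0.178, each recurred in 12 to 36 genes, as 1 count in 1 of 6 libraries would give. All 1308 genes with a base mean above 0 and under 1 were sums of whole multiples of these 6 steps within 2e-09, so the counts behind a value could be worked out.

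Atp6v1e1 stood highest of the members in base mean, at 9595, and per kb of the longest coding transcript, at 7313. Atp6v1f, a rotor subunit, followed at 7164 per kb (base mean 5775), and Atp6v1g1, the widely expressed partner of the E subunit in the stalks, at 6348 per kb (base mean 7205). These were also the members with the shortest transcripts, at 1312, 806 and 1135 bases. Atp6v1h, the subunit that links V1 to V0 and restrains free V1, came next at 2464 per kb (base mean 5049).

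Of the 8 abundant members, those of the ring, the rest of the rotor and the C subunit lay together at a lower level. Atp6v1d, the rotor shaft, had 1438 per kb (base mean 5272). Atp6v1a, the catalytic subunit, had 1355 per kb (base mean 5737). Atp6v1b2, the widely expressed B subunit, had 1253 per kb (base mean 3539), and Atp6v1c1, which regulates assembly, 1233 per kb (base mean 2554). Among these 8 members, the largest step in the order was between Atp6v1g1 and Atp6v1h, a ratio of 2.58 with a 95% counting interval of 2.54 to 2.61. The smallest step was between Atp6v1b2 and Atp6v1c1, a ratio of 1.02 with an interval of 0.995 to 1.04, so these neighbours did not differ beyond counting error. The order depends on the length used. With the median length over all coding transcripts, Atp6v1a came to 6417, Atp6v1c1 to 2090 and Atp6v1e1 to 14194 per kb. Atp6v1a then stood beside Atp6v1g1. With the transcript that has the longest coding sequence, 703 bases for Atp6v1f, that gene came to 8214 per kb, above Atp6v1e1 at 7313.

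In base mean without length, Atp6v1f and Atp6v1a were likewise not told apart, at a ratio of 1.01 with an interval of 0.992 to 1.02. About 15410 to 57899 counts lay behind each of the 8 values, so that counting error alone was 0.416% to 0.806% of the level. Intervals here and below cover counting error only. The library kit adds molecular tags, but whether they were used to remove copies of 1 molecule is not given in the sources used here.

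Per kb, the 8 abundant members lay between percentiles 83.6 and 98.1 of the genes above 0 that have a length. The median of all 10 members was 1396 per kb, beside 256 over those genes. In base mean the median of all 10 was 5161, beside 528 over the 16178 genes above 0.

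The pair at the bottom were the isoforms with narrow tissue patterns. Atp6v1g2, known as the neuronal G subunit, had a base mean of 6.29 (4.12 per kb). This equals 37 counts, the only whole-number solution, as 0, 0, 7, 8, 11 and 11 in the 6 libraries. Which of these libraries were treated cannot be read from the value, and in bulk RNA few cells with much of an mRNA cannot be told apart from many cells with little. Atp6v1b1, the B subunit of acid-secreting epithelia, had a base mean of 0.658 (0.329 per kb), which is 4 counts in 1 library and 0 in the other 5.

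Against its narrow relative, each widely expressed isoform had far more counts. Atp6v1b2 exceeded Atp6v1b1 by 5339-fold with a 95% interval of 2085 to 19598, and Atp6v1g1 exceeded Atp6v1g2 by 1175-fold with an interval of 852 to 1669. Both intervals treat the counts as pooled and cover counting error only. The counts of both narrow isoforms were uneven over the 6 libraries, as given above, so these intervals are likely too narrow. The 3 remaining V1 isoforms, Atp6v1c2, Atp6v1e2 and Atp6v1g3, were all at 0. With 3 counts over the 6 libraries as the limit that a 0 allows, Atp6v1c1 was at least 5137-fold higher than Atp6v1c2, Atp6v1e1 at least 19300-fold higher than Atp6v1e2, and Atp6v1g1 at least 14492-fold higher than Atp6v1g3. These ratios are of counts, not corrected for length.

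**Figure D2:**
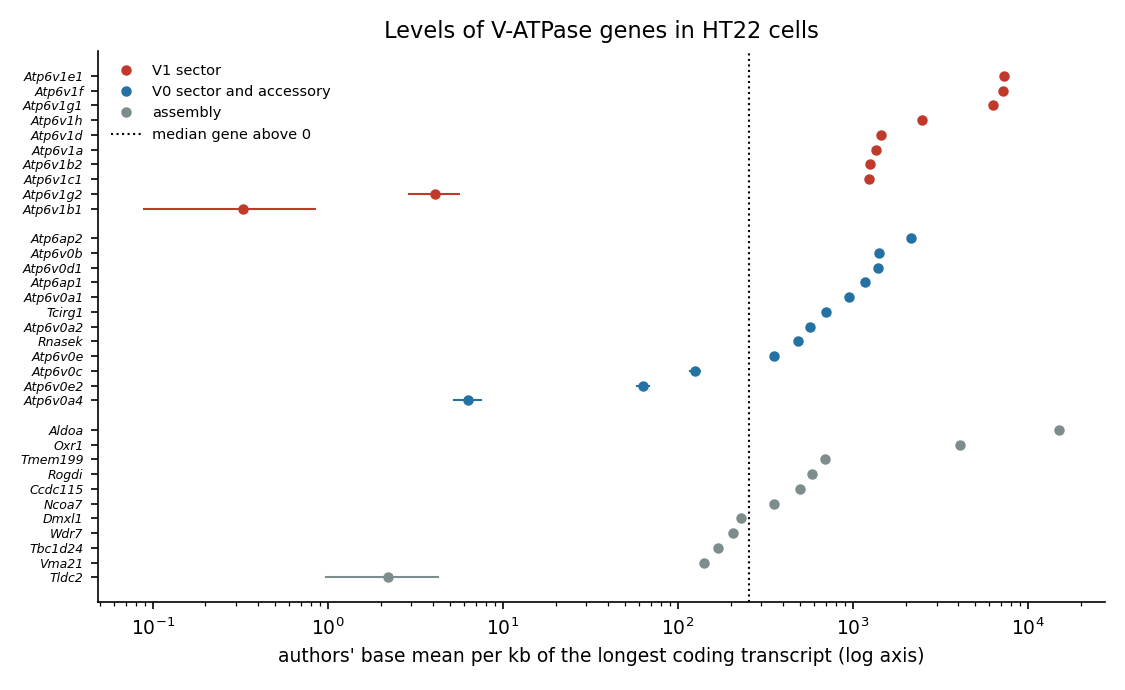
Base mean per kb of the longest coding transcript (log axis) for V-ATPase genes with a value above 0, by list, with lines for the 95% counting interval and a dotted line at the median gene (256 per kb). Of the V1 genes (red), 8 lie at 1233 or more per kb, to the right of that line, and Atp6v1g2 and Atp6v1b1 lie at 4.12 and 0.329.

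Near-identical copies elsewhere in the genome could take or give reads for some members. In Atp6v1g1, 19.2% of the 50-base stretches of the transcript also occurred in another annotated transcript, most of them from Gm13453 and Gm12344. In Atp6v1f the share was 12.5%, shared with AC169506.3, and in Atp6v1a it was 0.956%, shared with Gm18990. Atp6v1d shared 0.304%, and the other 6 members had no shared stretch. Only exact matches in annotated transcripts were counted, so copies that differ or are not annotated could be missed. The levels of Atp6v1g1 and Atp6v1f are uncertain for this reason, by an amount that these shares do not give. How the authors' counting treated such reads is not given in the sources used here.

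The rest of the pump gives the scale. Of 14 genes of the V0 sector and its accessory proteins, 12 had a base mean of at least 10, and these spanned 6.3 to 2143 per kb, all below the 4 highest V1 members. Rnasek and Atp6v0c, named after their values were seen, shared the most with other transcripts, at 97.9% and 32.5% of their 50-base stretches. Their levels are uncertain for this reason, by an amount not known here. Atp6v0b, a subunit of the proton-carrying ring of V0, had 1409 per kb, close to Atp6v1d. Of 13 genes for assembly and its regulators found in the table, 11 reached a base mean of 10. These ran from 317 to 23155, with a median of 1300. Oxr1, of the TLDc family that acts on V1, had 4081 per kb. Wdr7 and Dmxl1, subunits of the rabconnectin complex that brings V1 back to V0, had 206 and 229 per kb, near the median gene.

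The label of the line was checked against cell type markers. Of 9 neuronal markers, 5 (Map2, Nefl, Nefm, Snap25 and Dcx) were at 0 and none reached the median gene above 0. Tubb3 was the highest of them, at a base mean of 473. The 4 markers of hippocampal excitatory neurons summed to 31.3, nearly all of it Camk2a at 30.1. Summed base means were 6.45 for 3 astrocyte markers, 76 for 4 microglial ones and 54.7 for 3 of oligodendrocytes. For cells known for special V-ATPase isoforms, Foxi1 and Acp5 were at 0, and Slc4a1 and Ctsk were at 3.64 and 7.84.

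The letters on which m6A is laid occurred in every member. The longest coding transcripts held 12 (Atp6v1f) to 89 (Atp6v1a and Atp6v1d) DRACH matches. Per kb, Atp6v1e1 had the fewest, at 13.7, and Atp6v1d the most, at 24.3. Counted in the deposited table alone, 1 of the 8 members with a base mean of at least 10 had a peak (12.5%). In the same table, of all 2869 genes within their range of base means, 528 had one (18.4%), and of the 1542 that also lay within their range of transcript lengths, 176 had one (11.4%). In the V0 and accessory list 1 of 12 had a peak and in the assembly list 5 of 11. Of all 16178 genes above 0, 2164 had one (13.4%). The 5 assembly genes with a peak have transcripts of 4599 to 12247 bases, beyond the longest V1 transcript of 4234. Whether their share differs from that of genes of like length was not tested. The share among the V1 members is close to that of other genes of like level and length, so it is no result about V1. A gene without a peak here is one with none in this table, not one shown to lack m6A or to have had no peak called.

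**Figure D3:**
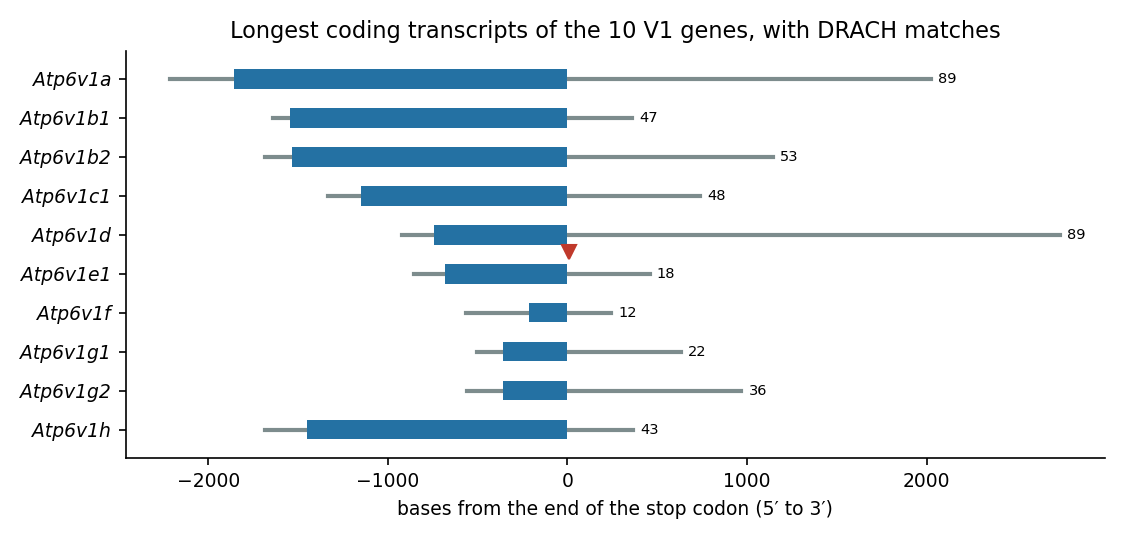
Longest coding transcripts of the 10 V1 genes drawn to scale in bases from the end of the stop codon, with coding sequence in blue and untranslated parts in grey. The Atp6v1f transcript drawn, of 806 bases, has 216 coding bases. Its transcript with the longest coding sequence is another one, of 703 bases. The number at the right of each is its count of DRACH matches, from 12 to 89, and the red triangle above Atp6v1e1 marks the only peak in the deposited table.

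The study compared MA-treated with control cells in mRNA levels, proteins and m6A. Its comparisons of mRNA levels and proteins are not reported here. For V1, the deposited peak table allows a comparison of m6A at the Atp6v1e1 peak. The reads are pooled over the 3 libraries of a group, so there is no spread between replicates and no test of the condition. The peak held 66 control input reads and 35 MA input reads. It held 53 control IP reads and 83 MA IP reads. Input reads were thus fewer and IP reads more numerous in the MA libraries. The same held for the table as a whole, whose peaks summed to 288659 control and 214778 MA input reads, and to 267002 control and 359889 MA IP reads. Over all peaks the median log2 ratio of MA to control was -0.47 for input reads, 0.47 for IP reads and 0.91 for IP over input, and changes below are given relative to these medians.

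**Figure D4:**
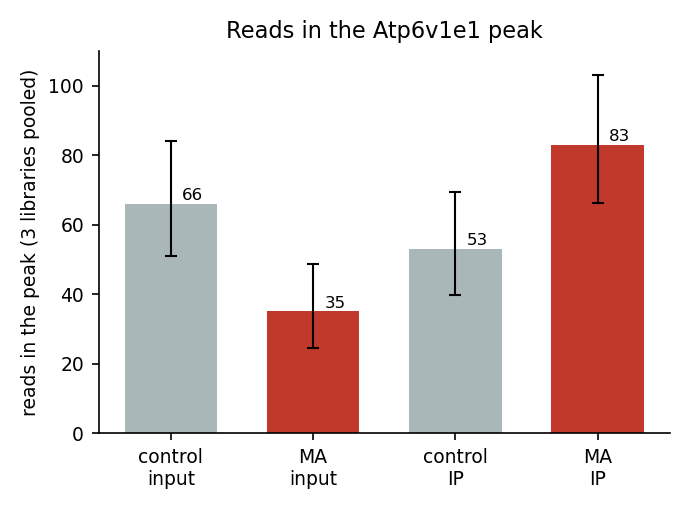
Reads in the Atp6v1e1 peak by condition and kind of library, pooled over 3 libraries each, with 95% Poisson intervals as error bars. Input reads are 66 in control and 35 in MA, and IP reads 53 and 83, before any scaling for depth.

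Relative to the median peak, input reads of the Atp6v1e1 peak were 0.736-fold in MA (95% interval 0.474 to 1.13), a log2 change of -0.44. This stayed within 1.5-fold, the size taken here as a change, which 14.9% of all peaks exceeded downward and 12.1% upward. IP reads were 1.13-fold (0.794 to 1.63), a log2 change of 0.18, also within 1.5-fold, which 17.1% of all peaks exceeded upward and 16.9% downward. Both intervals include no change, so neither difference was detectable at this depth.

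IP over input, the measure of m6A enrichment, was 1.57-fold that of the median peak in MA (95% interval 0.889 to 2.78), a log2 change of 0.65. It passed 1.5-fold, as did 27.9% of all peaks in this direction and 25.9% in the other, and 74.5% of peaks had a lower change. The interval includes 1, so counting error alone covers the difference from the median peak. Without reference to the median peak, the ratio of IP to input reads was 0.803 (0.549 to 1.17) in control and 2.37 (1.58 to 3.63) in MA. In the authors' scaled ratios the same peak had a log2 ratio of IP to input of 0.08 in control and 1.09 in MA. These are 1.06-fold and 2.13-fold, and they stood at percentiles 29.6 and 71.6 of all peaks in the respective condition. After that scaling the median peak still had a MA minus control difference of 0.37, beside 1.02 for Atp6v1e1.

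**Figure D5:**
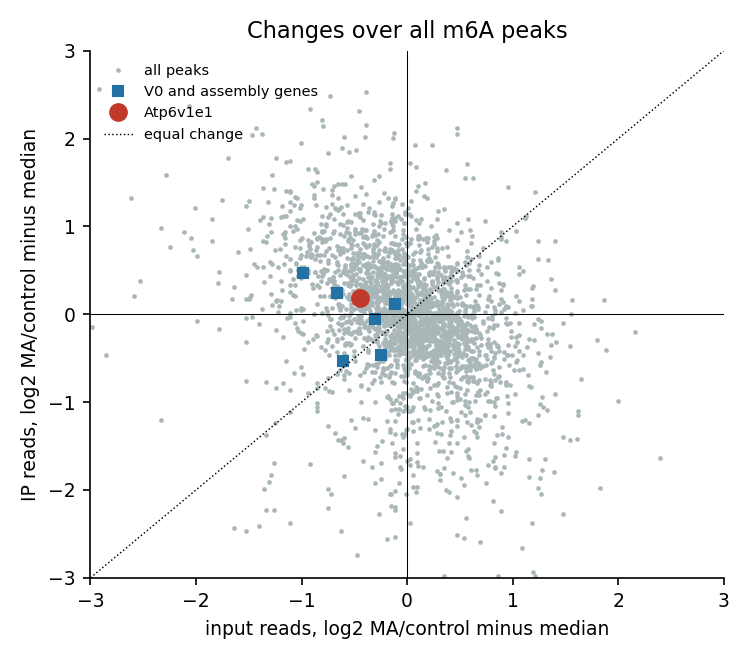
Log2 change of IP reads against that of input reads, MA over control, each minus its median over all 2643 peaks (12 peaks lie outside the axes, which end at 3). Atp6v1e1 (red) lies above the dotted line of equal change at -0.44 and 0.18, inside the cloud of all peaks, and the blue squares are the peaks of 6 other pump genes.

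Peaks on the other pump genes are given for scale. Those of Wdr7, Dmxl1 and Oxr1 were broad, at 5569, 1394 and 1638 bases, and held 20, 25 and 9 MA input reads. Those of Atp6v0b, Vma21 and Tbc1d24 were 71, 50 and 50 bases long, with 459, 112 and 40. The Atp6v1e1 peak had 50 bases and 35 such reads. Relative to the median peak, IP over input was 2.81-fold in MA for Wdr7 (1.4 to 5.68) and 1.91-fold for Dmxl1 (0.994 to 3.7). It was 1.19-fold for Atp6v0b (1.01 to 1.41) and 1.21-fold for Vma21 (0.873 to 1.68), an assembly factor of V0. For Oxr1 it was 1.07-fold (0.363 to 3.29) and for Tbc1d24, another TLDc protein, 0.877-fold (0.511 to 1.51). The Tbc1d24 peak is also assigned to Ntn3. The interval of Atp6v1e1 overlaps all 6.

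The Atp6v1e1 peak was thinly covered for so abundant an mRNA. Its 101 input reads over both conditions compare with 57899 counts behind the base mean of the gene, of which an even spread over the transcript would place 2207 in a stretch of 3.81% of its length. The window held 4.58% of that number. Over the 852 peaks of 50 bases with both values, the median was 99.9%, and 1.41% of them lay lower. Among the 252 of these on genes within the base mean range of the abundant V1 members, the median was 49.3%, and 7 lay lower. Whether the libraries behind the base mean are the input libraries is not stated, and both tables were counted by different tools.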

How the data were processed

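HT22 cells were sequenced as 3 input and 3 anti-m6A IP libraries per condition. The authors' pipeline ran fastp for trimming, HISAT2 for alignment to mm10, StringTie for expression, DESeq2 for the comparison of groups and exomePeak2 for peaks (tool versions are not given in the sources used here). The deposited base mean is a signal, for which counts were divided by size factors and averaged over libraries. The counts of reads per peak were deposited by the authors as 1 column per group, pooled over libraries. The log2 ratios of IP to input per condition are deposited values that the authors scaled with size factors from background regions. Depth is therefore known only as reads in peaks, 214778 to 359889 a group. The columns with the authors' own comparisons (fold changes, standard errors, statistics and p-values of MA against control, for genes and for peaks) were not used. The number of single-library columns left out is 0.

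Here, Python 3.11.15, pandas 2.3.3, numpy 2.4.6 and scipy 1.17.1 were used. Changes are log2 ratios of pooled reads minus the median over all peaks, with exact 95% intervals (binomial for 2 read numbers, conditional odds ratio for 4). Intervals of ratios between levels used the Poisson error of both counts, normal on the log scale; those of the isoform ratios are exact binomial. A 1.5-fold change counted as past the threshold. Transcripts, stop codons and lengths came from GENCODE vM21 and peak sequences from GRCm38, where 1 peak had no sequence. The code for intervals, centring and whole counts was run on simulated Poisson reads. These held no spread between libraries and the whole counts were small, so the run checks the code only. Named genes were all members, the remaining V1 isoforms and at most 6 genes of the V0 and assembly lists; the 6 named are those with a peak, chosen after the tables were seen, and 2 more are named for shared stretches. The members and lists were chosen with earlier results of these data known.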

Additional observations from a re-analysis of the deposited data

How the results depend on the processing

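No paired analysis was possible because the deposited tables hold 1 pooled value a group, and for the same reason no replicate could be left out. The median percentile of the 10 members by base mean per kb was 85.7. It was 87 with the median length of the coding transcripts, 88.9 without length, 82.6 when ranked among genes with a base mean of at least 10, and 84.6 with the transcript that has the longest coding sequence (chosen after seeing the data). The log2 changes of the Atp6v1e1 peak kept their direction under total reads and under a median over peaks with at least 10 reads in each group, at -0.49 and -0.47 for input reads, 0.22 and 0.18 for IP reads, and 0.71 and 0.68 for IP over input. For IP over input the authors' scaling gave 1.02, and 0.65 once the median over all peaks was taken off (also chosen after seeing the data). The peak passed 1.2-fold in input reads but not 1.5-fold, and relative to the median peak it passed 1.5-fold in IP over input but not 2-fold, which the authors' scaling without that reference did pass. RRACH and the central 100 bases could not change its DRACH match, since its letters fit both patterns and the peak is only 50 bases long. With 35 to 83 reads a group, intervals of the changes span over 1 log2 unit.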
